A study of Rattus norvegicus with 4 samples.

Results

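Atf3, Gdf15 and 6 partner genes of the cellular stress response were followed across the cells of the abdominal midline fascia, the sheet of connective tissue under the skin, of rats with dysentery. The 8 genes are Atf3, Gdf15, Atf4, Ddit3, Trib3, Gadd45a, Gadd45b and Gadd45g, and each was found by its symbol on 1 of the 30560 gene rows of the matrices. Atf3, Gdf15 and Gadd45b were taken up because they differed between the acupuncture and dysentery libraries of these same data, so their differences between those groups are given as a description without a test. The other 5 genes were added as known partners and were tested. They too were chosen with earlier results of these data known, so their p-values and counts do not rest on an independent choice.

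Dysentery had been induced with Salmonella in the animals of both groups. The acupuncture group (2 libraries) came from rats treated with needles after that, and the dysentery group (2 libraries) from rats without it, with no uninfected group. These groups follow titles, descriptions and design text. In all 4 libraries a further label, called treatment, gives the opposite group, and each sign below would turn if that label were right. Strain, age, sex, the number of animals and the time after needling were not given in the sources used here, so p-values here cover library-to-library spread alone, which may be technical. Of 38282 deposited cells, 34904 passed the limits on UMIs (counted molecules), genes and mitochondrial share, and 26130 of them could be placed in a class by marker genes. Median depth was 7158.5 and 8757.5 UMIs per cell in acupuncture replicates 1 and 2, and 5539 and 6815 in dysentery replicates 1 and 2. In dysentery replicate 1, 12.8% of cells lay above the mitochondrial limit, against 3.34% to 4.74% in the other libraries. Pairs of libraries shared 19 to 32 cell barcodes.

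Cells under stress slow the start of translation by phosphorylating the initiation factor eIF2, and under these conditions the transcription factor ATF4 is made. ATF4 switches on Ddit3, which encodes the transcription factor CHOP, and Trib3, a pseudokinase that restrains ATF4 and CHOP, and Atf3, a further factor of the same basic leucine zipper family, is one of its targets. Atf3 is also an early gene that responds to mitogens, cytokines and Toll-like receptor signals, and in macrophages it limits the transcription of inflammatory cytokines. Gdf15 encodes a secreted cytokine of the TGF-beta superfamily that acts through the receptor GFRAL in the hindbrain. The 3 Gadd45 genes encode small proteins that bind and activate the kinase MTK1 upstream of p38 and JNK, and bind PCNA and the cell cycle inhibitor p21.

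Promoter sequences are shown for members whose letters differ in the motifs of this pathway. They are RefSeq sequences of the build GRCr8, matched by symbol for 7 of the 8 members. Atf3 had no entry, so its promoter was not searched. Each sequence is the 250 bases before an annotated start, 5′ to 3′ on the gene's strand. Capitals mark the C/EBP-ATF response element (searched as TGATGNAA on both strands), the composite site that ATF4 binds with C/EBP proteins, in Trib3 and Gadd45g, and the AP-1 site (TGANTCA) in Ddit3. Gdf15 is shown at the second of its annotated starts, which carries none of these.
Trib3, chr3:161275534-161275783, minus strand: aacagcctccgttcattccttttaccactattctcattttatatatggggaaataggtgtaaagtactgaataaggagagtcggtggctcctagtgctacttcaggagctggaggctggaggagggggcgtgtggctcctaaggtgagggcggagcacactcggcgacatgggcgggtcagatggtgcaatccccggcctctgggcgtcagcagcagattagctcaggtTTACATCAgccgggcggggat
Gadd45g, chr17:13530352-13530601, minus strand: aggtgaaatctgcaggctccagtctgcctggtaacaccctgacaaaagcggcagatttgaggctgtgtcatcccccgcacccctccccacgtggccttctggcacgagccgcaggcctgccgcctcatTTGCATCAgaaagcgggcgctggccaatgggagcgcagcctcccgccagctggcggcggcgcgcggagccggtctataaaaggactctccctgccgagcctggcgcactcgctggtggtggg
Ddit3, chr7:65001445-65001694, plus strand: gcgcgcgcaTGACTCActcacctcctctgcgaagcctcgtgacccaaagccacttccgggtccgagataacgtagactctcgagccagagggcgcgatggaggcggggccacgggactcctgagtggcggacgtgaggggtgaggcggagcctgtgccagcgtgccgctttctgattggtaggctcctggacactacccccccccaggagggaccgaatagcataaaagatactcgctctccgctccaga
Gdf15, chr16:18839015-18839264, plus strand: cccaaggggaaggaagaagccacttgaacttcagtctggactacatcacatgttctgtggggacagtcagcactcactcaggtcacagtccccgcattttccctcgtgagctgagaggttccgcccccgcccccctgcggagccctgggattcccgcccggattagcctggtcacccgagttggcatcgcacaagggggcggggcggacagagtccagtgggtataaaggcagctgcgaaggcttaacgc
The response element began 21 bases before the start of Trib3 and 122 bases before that of Gadd45g, in both on the minus strand of the printed sequence. It stood in 3.40% of the 33469 RefSeq promoter windows of this length. The AP-1 letters stood 241 bases before the start of Ddit3 and in 6.34% of all windows. The cAMP response element TGACGTCA, present in 1.59% of windows, was found in none of the 8 windows of these 7 genes, 2 of which belong to Gdf15. The E-box CACGTG, present in 5.59% of windows, was found in Atf4, Gadd45b and Gadd45g. These matches are descriptions of letters, and Trib3 and Gadd45g, which share the response element, differed in how they moved between the groups (below).

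Among the cell classes, the levels of the members followed different patterns. Levels are CPM, the UMIs of a gene scaled to a fixed total of UMIs of the class in each library. They count 3′ ends, so no gene length enters. Of 16 classes, 7 held at least 30 cells in every library: fibroblasts (a class that also takes in cells with Cd34 and Pdgfra, markers often used for telocytes), macrophages, monocytes, neutrophils, T cells, NK and innate lymphoid cells, and vascular endothelial cells. Fibroblasts numbered 3976, 3733, 2857 and 6567 and macrophages 1939, 2487, 513 and 1326, in the order acupuncture replicates 1 and 2, dysentery replicates 1 and 2, and all values below keep this order. Among the 5 other classes the smallest count in a library was 36 cells, of monocytes. The monocyte markers include Nr4a1, itself an early response gene, and Fn1, which fibroblasts also make, so the monocyte values rest on a weaker class.

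Atf3 in fibroblasts stood at 807, 912, 43.5 and 37.6 CPM. In macrophages it stood at 1671, 1968, 651 and 282 CPM. Both acupuncture libraries lay above both dysentery libraries in these classes, and the gap was wide in fibroblasts, where the acupuncture mean was 21.2 times that of dysentery (860 ± 74.7 against 40.5 ± 4.23 CPM, SD, n = 2). T cells held 479, 376, 71.0 and 77.0 CPM and endothelial cells 559, 568, 240 and 331 CPM, again without overlap. In monocytes (1661, 1048, 2322 and 443 CPM), neutrophils (1809, 688, 1135 and 761 CPM) and NK and innate lymphoid cells (256, 159, 185 and 147 CPM) the groups overlapped. With acupuncture the order of the mean Atf3 level from the top was macrophages, monocytes, neutrophils, fibroblasts, endothelial cells, T cells, and NK and innate lymphoid cells. The range of neutrophils overlapped those of macrophages, monocytes and fibroblasts, so these neighbours were not apart. Without acupuncture fibroblasts stood at the bottom, below T cells, while monocytes ranged from 443 to 2322 CPM.

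Gdf15 was found mainly in macrophages. Its level in macrophages was 689, 880, 79.2 and 53.6 CPM, with both acupuncture libraries above the others. No other class exceeded 41.3 CPM in any library, and outside fibroblasts and macrophages these levels rested on 1 to 22 UMIs per library. Fibroblasts held 14.3, 19.3, 1.07 and 1.01 CPM (448, 722, 23 and 47 UMIs). After each cell was thinned to 2000 UMIs, 40.0%, 47.7%, 5.60% and 5.93% of macrophages had a Gdf15 UMI (58.9%, 70.0%, 11.7% and 9.35% without thinning). The thinned share was 1.83%, 2.00%, 0.319% and 0.0829% in fibroblasts. In T cells, a class not known for Gdf15, it was 1.67%, 1.98%, 0.518% and 0.645%, from 3, 5, 1 and 1 cells. The exact 95% intervals of the T cell shares, 0.345% to 4.79% in acupuncture replicate 1 and 0.0163% to 3.54% in dysentery replicate 2, held the fibroblast share, so the shares could not be told apart at this depth. Median depth was 7243, 9291, 7201 and 6859 UMIs in fibroblasts and 5273, 5696, 4919 and 4519 in T cells.

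Free RNA from broken cells carries the genes of its source in a fixed ratio, so Gdf15 was also set against 4 macrophage genes outside the marker list (Pf4, Lyz2, Tyrobp and Aif1, chosen after the levels were seen). Macrophages held 58.9, 74.0, 4.90 and 2.33 Gdf15 UMIs per 1000 UMIs of these genes. T cells held 75.0, 58.4, 5.38 and 2.54. These rest on 9, 8, 1 and 1 Gdf15 UMIs, too few to compare with the macrophage ratio. Monocytes, neutrophils, and NK and innate lymphoid cells held 0.294 to 7.45, from 1 to 12 Gdf15 UMIs per library. In these classes the 4 genes themselves stood at 15730 to 30346, 8316 to 11176 and 3131 to 4792 CPM, in that order. T cells held them at 91.4 to 460 CPM and macrophages at 11705.5 to 23039.8 CPM. With the 4 genes this high, the low ratios of those 3 classes are no measure of free macrophage RNA. Pf4 is also among the genes most correlated with Gdf15 (below). Fibroblasts held 130, 133, 3.29 and 2.62, above the macrophage ratio in both acupuncture libraries, below it in dysentery replicate 1 and slightly above it in dysentery replicate 2. Endothelial cells, with 1 to 22 Gdf15 UMIs per library, held 42.9, 78.6, 13.9 and 135. Fibroblasts are gated for having few macrophage markers, and the part of this gate in the ratio was not tested.

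**Figure D1:**
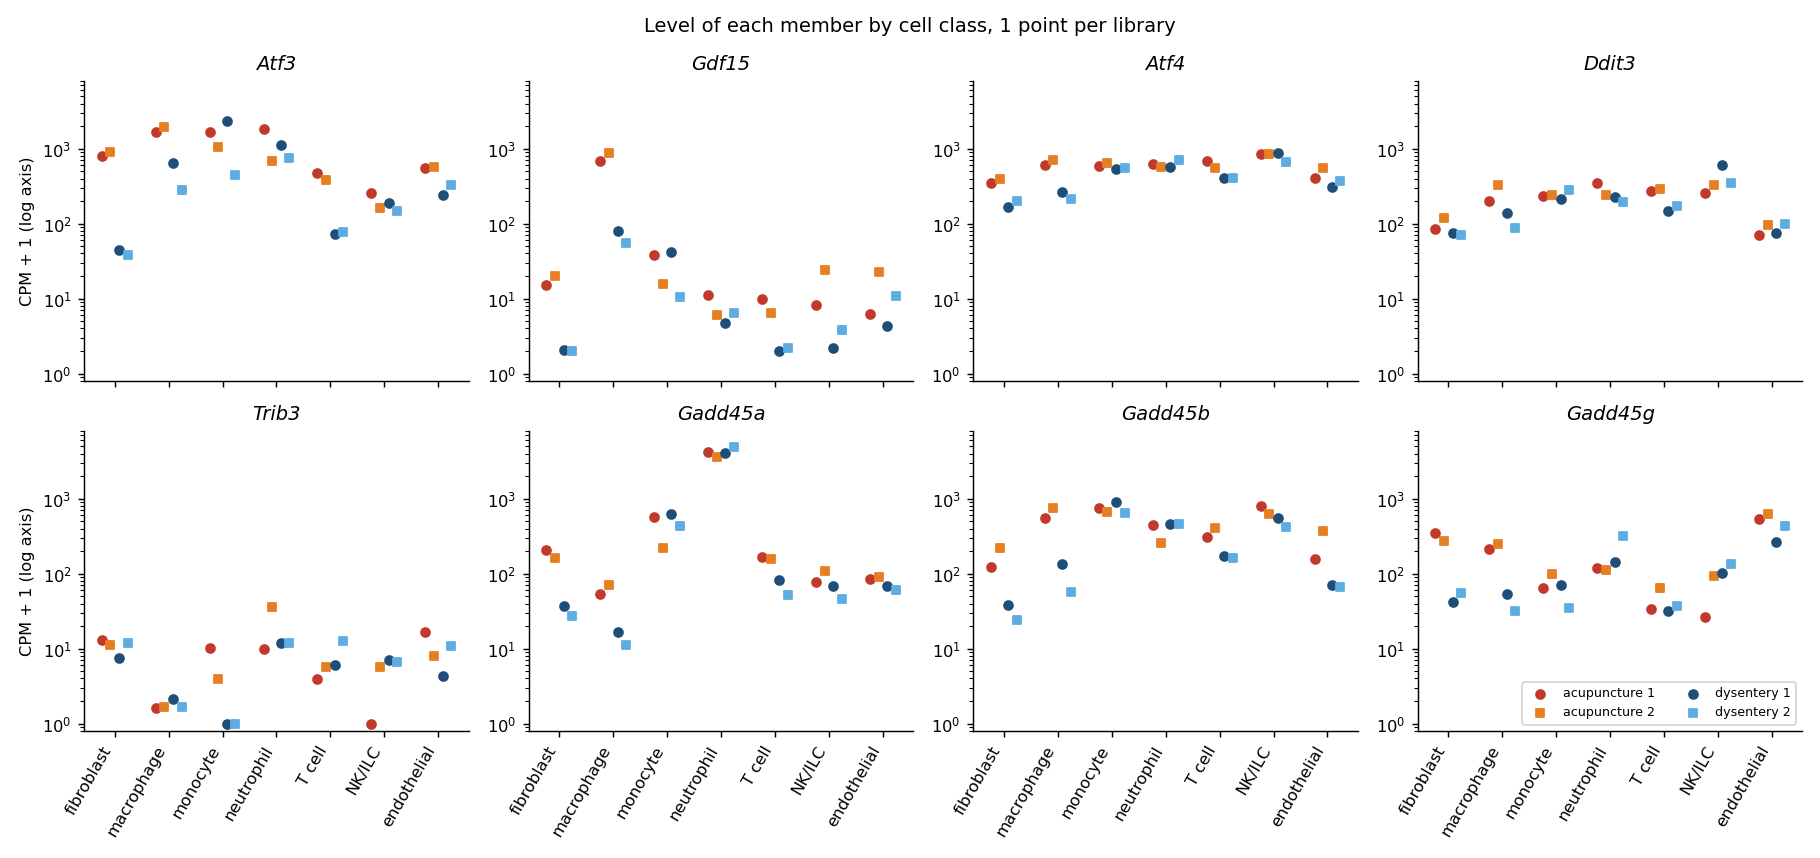
Level of each of the 8 members in 7 cell classes, as CPM + 1 on a log axis, 1 point per library (circles and squares are replicates 1 and 2). Atf3 separates the groups most widely in fibroblasts, Gdf15 stands at 53.6 to 880 CPM in macrophages and at most 41.3 CPM elsewhere, and Gadd45a stands at 3583 to 4922 CPM in neutrophils of both groups.

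The 3 upstream and downstream members of the ATF4 branch differed from each other. Atf4 mRNA stood at 353, 394, 164 and 202 CPM in fibroblasts and 598, 706, 262 and 214 CPM in macrophages, with no overlap in either class. It was high in NK and innate lymphoid cells (861, 854, 882 and 656 CPM), where the groups overlapped, and T cells held 685, 559, 401 and 400 CPM. Since ATF4 protein is set mainly at translation, its mRNA is not a measure of its activity. Ddit3 stood at 84.6, 117, 73.3 and 69.7 CPM in fibroblasts and 198, 328, 139 and 86.0 CPM in macrophages. In NK and innate lymphoid cells its CPM lay lower with acupuncture, at 256, 322, 614 and 348, while the shares of cells overlapped (below). Trib3 was scarce, at 12.2, 10.3, 6.55 and 10.8 CPM in fibroblasts and 0.593, 0.668, 1.10 and 0.661 CPM in macrophages (4 to 17 UMIs), and the groups overlapped in both.

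The Gadd45 genes differed in the classes where they stood high. Gadd45a was highest in neutrophils, at 4225, 3583, 4064 and 4922 CPM, where the groups overlapped and 95.5% to 98.4% of thinned cells had a UMI. Monocytes came next at 564, 218, 620 and 433 CPM. Fibroblasts held 208, 163, 35.6 and 26.3 CPM and macrophages 51.9, 69.1, 15.7 and 10.1 CPM, both without overlap. Gadd45b stood at 745, 671, 913 and 648 CPM in monocytes and 798, 625, 552 and 421 CPM in NK and innate lymphoid cells, whose ranges overlapped. In macrophages it stood at 546, 744, 133 and 56.2 CPM and in fibroblasts at 122, 221, 37.5 and 23.0 CPM. Gadd45g was highest in endothelial cells, at 544, 625, 263 and 433 CPM, followed with acupuncture by fibroblasts at 353, 276, 40.7 and 54.8 CPM, and macrophages held 213, 249, 51.9 and 30.7 CPM.

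The number of members for which both acupuncture libraries lay above both dysentery libraries was 7 of 8 in fibroblasts, all but Trib3, where 23.7% of all genes tested did so (26.1% lay below, with none of the members). In macrophages it was also 7 of 8, again all but Trib3, against 20.8% of genes (37.4% below). For Atf3, Gdf15 and Gadd45b this contrast was the ground for choosing them, so nothing is read from their part in the count. T cells had 6 of 8 above (17.4% of genes) and 1, Trib3, below (23.0% of genes). Endothelial cells had 5 of 8 above (30% of genes) and none below (15.9%). In these 4 classes the shares cover genes that passed the filter on low counts. Trib3 did not pass it in macrophages, and neither Gdf15 nor Trib3 passed it in T cells or endothelial cells. In T cells these 2 members rest on 9, 8, 1 and 1 UMIs of Gdf15 and 3, 7, 5 and 10 of Trib3. The other classes had fewer, with 2 of 8 above and none below in monocytes (17.6% and 13.1%), 1 above and 2 below in neutrophils (23.5% and 13.6%), and 3 above and 3 below in NK and innate lymphoid cells (19.8% and 18.7%). In neutrophils the pair below was Gadd45b and Gadd45g. Some members in these small classes rest on very few UMIs. Trib3, counted above in monocytes, had 3, 1, 0 and 0 UMIs. In NK and innate lymphoid cells Gdf15, counted above, had 2, 5, 1 and 1 UMIs, and Trib3, counted below, had 0, 1, 5 and 2.

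The level of the members differed between macrophages and fibroblasts of the same libraries. This was tested in 1 fit of 8 summed profiles with the library as a block, a contrast that does not use the groups, and 70.4% of 13756 genes passed it (31.6% higher and 38.8% lower in macrophages). Higher in macrophages were Gdf15 (log2 5.76 ± 0.13 SE, edgeR adjusted p = 3.1e-12), Atf3 (2.27 ± 0.15, adjusted p = 5.1e-08) and Gadd45b (1.78 ± 0.13, adjusted p = 9.6e-08). Ddit3 (1.01 ± 0.11) and Atf4 (0.62 ± 0.12) were also higher, with adjusted p of 6.2e-06 and 0.000495. Lower in macrophages were Trib3 (-3.80 ± 0.23, adjusted p = 1.4e-08) and Gadd45a (-1.42 ± 0.12, adjusted p = 5.3e-07). Gadd45g differed by -0.33 ± 0.16, which did not pass (adjusted p = 0.089). With 7 of 8 members passing against 70.4% of all genes, the count is near the background.

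In fibroblasts, 2 of the 5 tested members rose with acupuncture, where 2.41% of 13364 genes passed in either direction 1.7% as higher and 0.711% as lower. All 8 members passed the filter on low counts in this class. Gadd45a rose by 2.60 ± 0.16 on the log2 scale (6.08-fold, edgeR adjusted p = 0.0038) and Gadd45g by 2.72 ± 0.20 (6.59-fold, adjusted p = 0.0065). Atf4 differed by 1.05 ± 0.18 and missed the threshold (adjusted p = 0.052), and it passed under 6 of 10 alternatives (adjusted p from 1.9e-06 to 0.173 over all of them). Ddit3 (0.53 ± 0.20, adjusted p = 0.22) and Trib3 (0.36 ± 0.26, adjusted p = 0.48) did not pass. For the members chosen on this contrast the fit gave 4.43 ± 0.18 for Atf3, 4.04 ± 0.26 for Gdf15 and 2.56 ± 0.38 for Gadd45b. The Gdf15 value rests on low levels, and whether they come from fibroblasts or from free RNA was not tested. Summed macrophage markers in fibroblasts stood at 152, 122, 114 and 82.4 CPM over 10 genes, none at 0 in every library. The gate itself limits these markers, and the 4 macrophage genes outside the marker list stood at 110, 145, 324 and 386 CPM. NK markers stood at 12.6, 4.97, 88.5 and 17.0 CPM over 9 genes, 1 of them at 0 in every library. The part of all these genes in the fibroblast results was not tested.

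In macrophages, 3 of the 4 tested members that passed the filter rose with acupuncture, where 4.88% of 11477 genes passed in either direction 3.43% as higher and 1.45% as lower. Trib3 did not pass the filter. Atf4 rose by 1.56 ± 0.15 (2.94-fold), Gadd45a by 2.38 ± 0.24 (5.22-fold) and Gadd45g by 2.62 ± 0.24 (6.14-fold), each with an edgeR adjusted p of 0.0127. Ddit3 differed by 1.34 ± 0.30 (adjusted p = 0.062) and passed under 5 of 11 alternatives. The fit gave 3.68 ± 0.23 for Gdf15, 2.90 ± 0.39 for Gadd45b and 2.08 ± 0.36 for Atf3, without a test.

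The macrophages of the groups differed in their own markers. Cd163, a scavenger receptor of resident macrophages, was detected in 87.3%, 86.8%, 56.9% and 47.1% of them, and C1qc, a complement subunit, in 97.2%, 97.7%, 94.7% and 80.5%. When only the 1862, 2404, 474 and 1032 macrophages with UMIs of C1qa, C1qb and C1qc were kept, Gdf15 stood at 726, 910, 88.1 and 73.7 CPM and Atf3 at 1660, 1963, 695 and 328 CPM. Summed fibroblast markers in macrophages stood at 342, 452, 711 and 468 CPM. The part of these differences in the macrophage results was otherwise not tested. In bulk sums of a class, more cells with a transcript and more transcripts per cell cannot be told apart, and the thinned shares below separate them in part.

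In T cells and endothelial cells, none of the 4 tested members that passed the filter was called by edgeR (0 in each class), where 0.567% (0.523% higher, 0.0436% lower) and 0.497% (0.348% higher, 0.149% lower) of genes passed. At an unadjusted p under 0.05 there were 3 in T cells and 1 in endothelial cells, and DESeq2 called 2 and 0. In T cells Gadd45a differed by 1.32 ± 0.24 (adjusted p = 0.058) and Ddit3 by 0.87 ± 0.16 (adjusted p = 0.064). Gadd45a passed under 8 of 10 alternatives (adjusted p from 5.3e-07 to 0.092 over all of them) and Ddit3 under 6 of 10 (0.00097 to 0.27). In endothelial cells Ddit3 differed by -0.15 ± 0.26 (adjusted p = 0.86). Atf3 stood 2.58 ± 0.19 higher in T cells and 0.86 ± 0.21 higher in endothelial cells, without a test.

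None of the 5 tested members differed in its change between macrophages and fibroblasts (0 of 5 by edgeR), where 2.73% of genes passed (1.92% with a larger and 0.807% with a smaller value in macrophages). At an unadjusted p under 0.05 there were 2, and DESeq2 called 0. The nearest was Ddit3, whose change was 0.86 ± 0.22 larger in macrophages (adjusted p = 0.071, and 0.00089 to 0.39 over the alternatives). Among the members given without a test, the change of Atf3 was 2.21 ± 0.30 log2 units smaller in macrophages than in fibroblasts (-2.21), while that of Gdf15 differed by -0.27 ± 0.25 and that of Gadd45b by 0.51 ± 0.25. Leaving out 1 library moved the Atf3 value to between -1.75 and -2.72. The starting level of Atf3 also differed, at 467 ± 261 CPM in dysentery macrophages and 40.5 ± 4.23 CPM in dysentery fibroblasts (SD, n = 2).

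In fibroblasts, macrophages and T cells the shares of cells with a UMI at equal depth separated the groups for the same members as the CPM did. This did not hold in the other classes. Shares overlapped although CPM did not for Atf4, Gadd45a, Gadd45b and Gadd45g in endothelial cells and for Gadd45b and Gadd45g in neutrophils. The same held for Gdf15, Ddit3, Trib3 and Gadd45b in NK and innate lymphoid cells and for Atf4 and Trib3 in monocytes. Shares separated the groups although CPM overlapped for Atf3 in neutrophils and in NK and innate lymphoid cells (higher with acupuncture). In monocytes this was so for Gadd45b and Gadd45g (higher) and Gdf15 (lower). At 2000 UMIs per cell, Atf3 was detected in 31.5%, 43.6%, 5.58% and 5.49% of fibroblasts and in 65.9%, 84.6%, 28.8% and 18.3% of macrophages. Gadd45b was detected in 48.1%, 63.0%, 15.6% and 8.62% of macrophages, and Atf4 in 63.2%, 71.7%, 35.7% and 31.4%. Ddit3 was detected in 14.4%, 17.6%, 12.3% and 12.8% of fibroblasts, a difference of a few points, and in 25.7%, 41.1%, 19.7% and 10.3% of macrophages. Trib3 was detected in at most 2.46% of fibroblasts and 0.415% of macrophages. Exact 95% intervals of these shares cover counting error only and are drawn in the plot of shares.

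**Figure D2:**
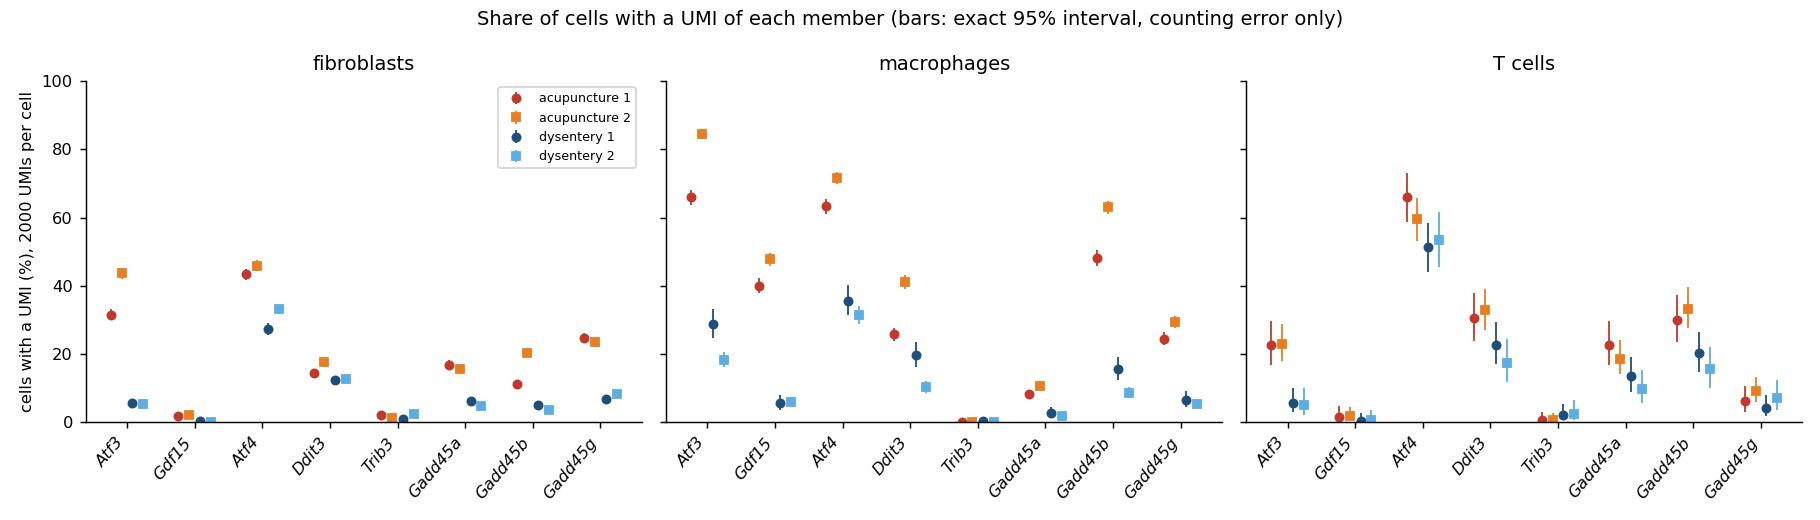
Share of cells with at least 1 UMI of each member after thinning to 2000 UMIs, in fibroblasts, macrophages and T cells, 1 point per library with its exact 95% Clopper-Pearson interval. In macrophages the shares of Atf3, Gdf15, Atf4 and Gadd45b lie higher in both acupuncture libraries, and Gdf15 in fibroblasts stays at 2.00% or less, as in T cells.

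Whether the members were high in the same cells was asked within each library, from the odds of finding both of a pair in 1 thinned cell. In macrophages Atf3 and Gdf15 were found together more often than their separate shares give, in every library. Both were present in 626, 1048, 20 and 41 cells, where independent detection gives 503, 994, 7.79 and 13.8. Gdf15 was detected in 49.8%, 50.3%, 14.4% and 17.7% of macrophages with Atf3 and in 21.1%, 33.5%, 2.04% and 3.29% of those without. The log2 odds ratios were 1.89, 1.00, 2.94 and 2.65, so the association was present in both groups and lowest in acupuncture replicate 2, where 84.6% of macrophages had Atf3. Cells are not replicates, so no p is given, and the spread is that over 4 libraries (mean 2.12, SD 0.868).

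In fibroblasts the same pair gave log2 odds ratios of 0.777, 0.466, 1.76 and 0.643. These rest on 28 and 34 cells with both in the acupuncture libraries, where 20.2 and 28.8 are given by independence, and on 1 and 0 cells in the dysentery libraries. At this depth joint detection in fibroblasts could not be told from independence in the dysentery libraries. With 0 such cells, the value of 0.643 is positive only through the 0.5 added to each count. In the acupuncture libraries the excess over independence was small and was not tested.

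The other pairs were mostly positive too. Among pairs expected in at least 5 cells of every library, 12 of 12 in macrophages and 11 of 16 in fibroblasts had a log2 odds ratio above 0 in all 4 libraries. As a background, 8.25% of 3492 genes in macrophages and 12.3% of 3869 genes in fibroblasts were above 0 in all libraries when paired with Atf3, with median log2 odds ratios of -0.094 and 0.017. This background is not fully alike, since it holds pairs with Atf3 alone and no limit on the expected cells. The member counts cover pairs among all members. Atf3 with Ddit3 gave 1.94, 1.07, 2.47 and 3.08 in macrophages. In fibroblasts Atf3 with Ddit3 gave 1.20, 1.18, 0.383 and -0.046, and Atf3 with Atf4 gave 1.81, 1.80, 0.359 and 0.106. The fibroblast association of Atf3 with these 2 genes was thus larger in both acupuncture libraries than in either dysentery library, and for Ddit3 macrophages had the opposite order. Atf3 with Gadd45b gave 2.40, 2.02, 0.966 and 0.852 in fibroblasts and 1.87, 0.797, 2.11 and 1.99 in macrophages. Atf4 and Ddit3, the transcription factor and its target, gave 1.20, 0.425, 1.58 and 2.09 in macrophages and 0.807, 0.729, 0.333 and -0.046 in fibroblasts. These orders between groups were not tested, since each group has 2 libraries.

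**Figure D3:**
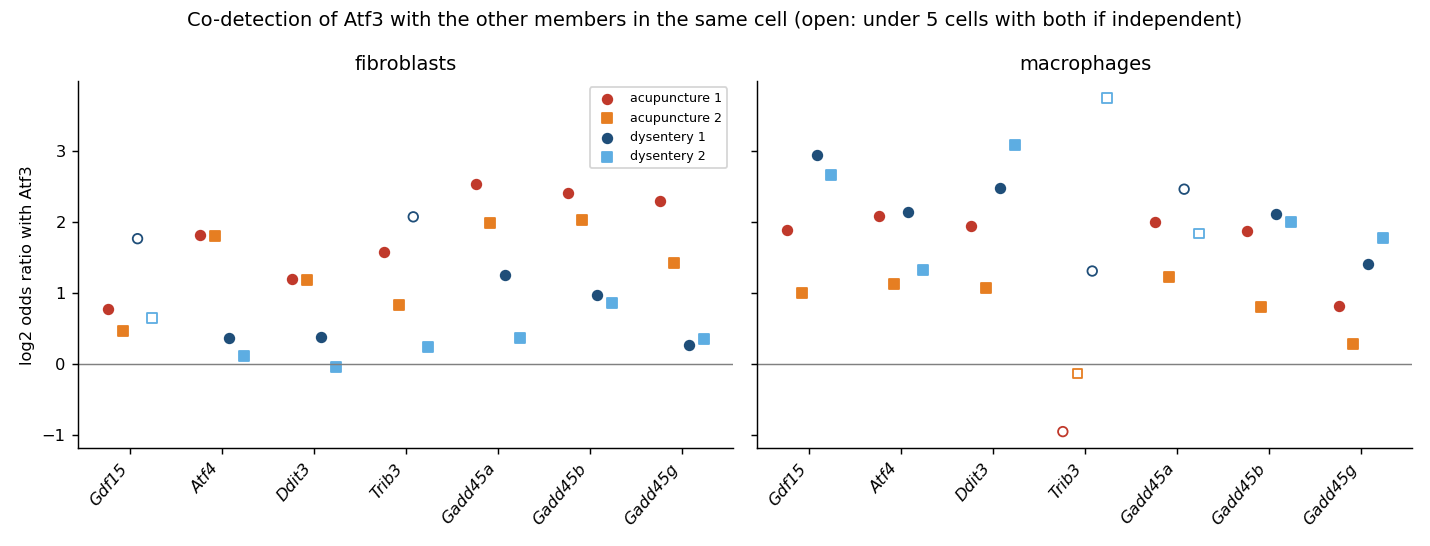
Log2 odds ratio of finding Atf3 and each other member in the same thinned cell, 1 point per library, in fibroblasts and macrophages; open points have fewer than 5 cells with both genes under independence. In macrophages Atf3 with Gdf15 lies between 1.00 and 2.94 in all 4 libraries, and in fibroblasts Atf3 with Atf4 lies at 1.81 and 1.80 with acupuncture and 0.359 and 0.106 without.

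Counted together, cells with at least 4 of the 8 members made up 35.2%, 51.8%, 7.05% and 5.38% of macrophages, where the product of the single shares gives 26.0%, 49.5%, 1.11% and 0.281%. In fibroblasts they made up 11.5%, 13.04%, 0.518% and 0.299%, against 3.04%, 5.16%, 0.108% and 0.131%. Macrophages with none of the 8 made up 11.3%, 2.48%, 42.1% and 50.2%. Their excess over independence was present in all 4 libraries of both classes, and in acupuncture replicate 2 macrophages it was small.

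**Figure D4:**
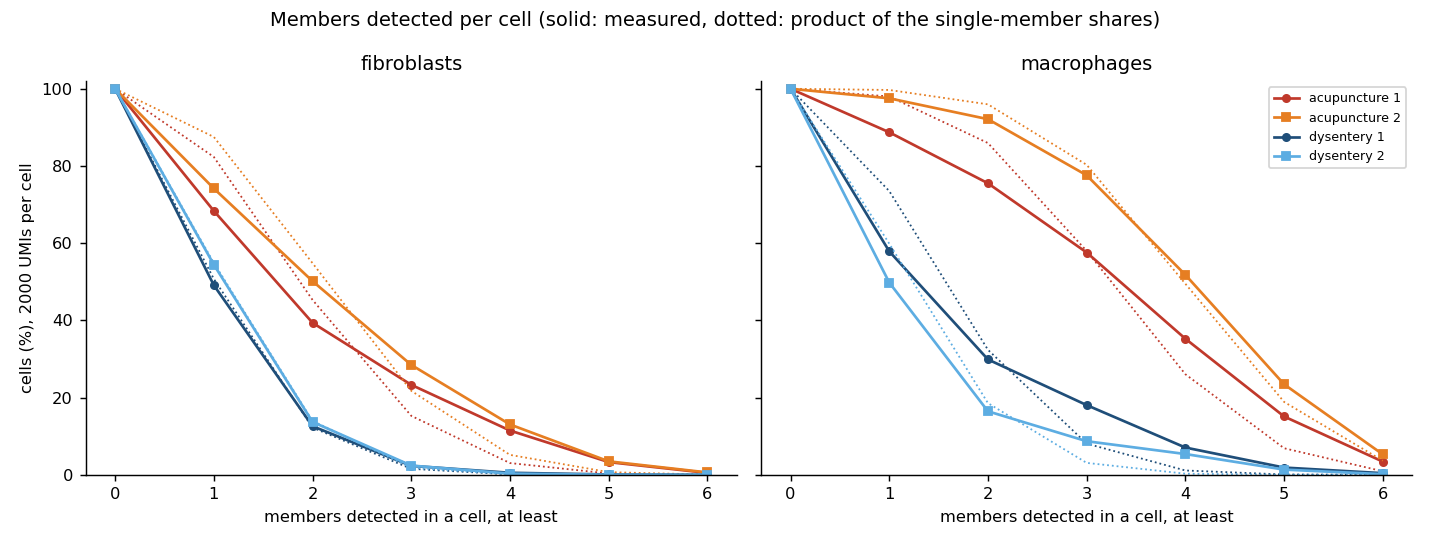
Share of thinned cells with at least the given number of the 8 members, in fibroblasts and macrophages, 1 line per library; dotted lines show the shares that independent detection of each member would give. At 4 or more members the measured line lies above its dotted line in every library, for example at 35.2% against 26.0% in macrophages of acupuncture replicate 1.

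Other genes had larger odds ratios with Atf3 than the members had, among genes in at least 5% of thinned cells of every library. In macrophages the 5 highest mean log2 odds ratios with Atf3 among 3492 genes were those of Jun (3.42), Junb (2.99), Fos (2.99), Egr1 (2.82) and an unnamed row, ENSRNOG00000069024 (2.45). Ddit3 ranked 17 and Gdf15 18 in that order, Gadd45b 27, Atf4 29 and Gadd45g 67. In fibroblasts the first were Egr1 (2.47), Fos (2.41), the unnamed row ENSRNOG00000050647 (2.36), Btg2 (2.29) and Jun (2.24), while Gadd45g ranked 40, Atf4 43 and Ddit3 81 of 3869. Jun and Fos encode the AP-1 dimer and Egr1 an early zinc finger factor. With Gdf15 in macrophages the first were C1qa (3.45), C1qb (3.20), Jun (3.14), C1qc (3.05) and Fos (2.97), and Atf3 ranked 9. These are means over the libraries, and C1qc ranged from -0.69 to 4.37 and C1qb from 0.90 to 4.11. The C1q genes are among the markers that define this class, so cells near the edge of the gate carry fewer of them. The first with Gdf15 in fibroblasts were Akap8l, Pcmt1, Fbxo22, Yy1 and Rbfox2 (1.60 to 1.75), which rest on the 5 to 66 thinned fibroblasts per library with a Gdf15 UMI. Atf3 ranked 270 of 3870 there, at 0.91 against a median of 0.15 over all genes compared.

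Across the 28 sums of 7 classes by 4 libraries, the genes most like Atf3 by Pearson correlation of log2(CPM + 1) were Nfkbiz (0.85), a regulator of NF-kB targets, Socs3 (0.84), a feedback inhibitor of cytokine signalling, and Zfand2a (0.82), a heat shock and arsenite response gene, with 2 unnamed rows after them (0.80 each). Gdf15 ranked 36 of 7779 (0.67) and Gadd45b 140 (0.60). Those most like Gdf15 were Hmox1 (0.90), which degrades haem, Fcna (0.86), Rarres1 (0.83), Pf4 (0.81) and Ninj1 (0.80), and Atf3 ranked 95. The sums share libraries and depth, and these correlations are descriptions.

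Of the wider stress pathways, many early genes and some heat shock genes rose, and most of the integrated stress response and unfolded protein response genes did not pass. The counts below stand against 2.41% of all genes called in fibroblasts and 4.88% in macrophages, and a count of 1 in a list of 10 to 19 genes is too near these shares to be read as a change of the list. The 12 lists below overlap in some genes, hold none of the 8 members, and are described by their counts. The lists were also chosen with earlier results of these data known, so these counts do not rest on an independent choice. Of immediate early genes, which also respond to tissue dissociation, 16 of 26 rose in fibroblasts and 19 of 26 in macrophages, with median log2 differences of 1.80 and 1.63 against -0.0071 and -0.0042 over all genes tested. Both groups were dissociated by the same protocol per the labels, and the part of handling in these changes was not tested. In fibroblasts Csrnp1 (3.24), Egr1 (3.15) and Egr2 (2.97) led, with edgeR adjusted p of 0.0019, 0.0018 and 0.0077. Egr1 stood there at 1798, 1935, 218 and 208 CPM. In macrophages Maff (2.91), Csrnp1 (2.64) and Socs3 (2.63) led, with adjusted p of 0.036, 0.016 and 0.0061. Without acupuncture replicate 2 the macrophage count was 9 and without dysentery replicate 2 it was 11, as it was with the replicate block.

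Of the heat shock genes, which encode chaperones for misfolded proteins, 7 of 12 rose in fibroblasts (median 1.17), among them Dnajb4 (2.14 ± 0.16, adjusted p = 0.0065), Hsp90aa1 (1.48 ± 0.14, adjusted p = 0.011) and Dnajb1 (1.44 ± 0.20, adjusted p = 0.032). In macrophages edgeR called 0 of 12 (median 0.97), while 12 of 12 were positive, 11 passed at an unadjusted p under 0.05 and DESeq2 called 5. The difference in change between the classes did not pass for Dnajb4 (adjusted p = 0.072), Hsp90aa1 (0.71) or Dnajb1 (0.93). The fibroblast count was 4 without acupuncture replicate 2. Hsp90aa1 stood at 927, 965, 360 and 327 CPM in fibroblasts.

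Of the ATF4 target genes edgeR called 1 of 19 as higher in fibroblasts (median 0.44) and 4 of 16 in macrophages (median 0.35). Positive differences were found for 17 of 19 and 13 of 16. At an unadjusted edgeR p under 0.05 there were 7 in fibroblasts, 6 of them higher, and 8 in macrophages, all higher. DESeq2 called 2 and 5. The fibroblast gene was Cebpb (1.26 ± 0.17, adjusted p = 0.026), which encodes a partner of ATF4 and is also an inflammatory response gene; the count was 0 without acupuncture replicate 2. In macrophages Cebpb (1.71 ± 0.16, adjusted p = 0.013), the amino acid transporter subunit Slc7a5 (1.65 ± 0.26, adjusted p = 0.028) and the lipoprotein receptor Vldlr (1.60 ± 0.31, adjusted p = 0.046) led. The macrophage count was 1 without acupuncture replicate 2 or without dysentery replicate 2 and 2 without acupuncture replicate 1, and it was 8 with no filter on low counts. Cebpb stood at 1609, 1963, 568 and 604 CPM in macrophages.

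Endoplasmic reticulum chaperones and other genes of the unfolded protein response passed in none of 19 in fibroblasts (median -0.049) or macrophages (median 0.18) by edgeR (0 of 19 in each). At an unadjusted p under 0.05 there were 2 in fibroblasts and 4 in macrophages, and DESeq2 called 1 and 2. Of eIF2 kinases and phosphatase subunits edgeR called 0 of 10 in fibroblasts (3 at an unadjusted p under 0.05, 1 by DESeq2) and 1 of 10 in macrophages. That gene was Ppp1r15a, which encodes the stress-induced phosphatase subunit GADD34, at 5.33, 4.99, 0.552 and 0.550 CPM. In macrophages of dysentery replicate 1, 3 UMIs equal 0.828 CPM, so the level there rests on fewer than 3 UMIs. Ppp1r15a differed by 3.29 ± 0.36 on the log2 scale (edgeR adjusted p = 0.015). It lost the call without acupuncture replicate 2 (adjusted p = 0.073) and without dysentery replicate 2 (adjusted p = 0.051). Mitochondrial stress genes passed in 0 of 11 in each class, with 3 in fibroblasts and 4 in macrophages at an unadjusted p under 0.05 and 0 and 1 called by DESeq2.

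Of the targets of p53, 3 of 16 rose in fibroblasts and 4 of 16 in macrophages. In fibroblasts these were Btg2 (2.27 ± 0.18, adjusted p = 0.0079), also counted among the early genes, Plk2 (1.74 ± 0.16, adjusted p = 0.011) and Mdm2 (0.85 ± 0.13, adjusted p = 0.041), which encodes the ligase that degrades p53. In macrophages Cdkn1a (2.38 ± 0.24, adjusted p = 0.013), which encodes p21, Plk2 (2.25) and Mdm2 (1.55) led. The macrophage count was 1 without acupuncture replicate 2. Mdm2 in fibroblasts lost its call without each library in turn.

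Among the direct partners of the GADD45 proteins edgeR called 0 of 10 in fibroblasts (3 at an unadjusted p under 0.05, 1 by DESeq2) and 2 of 10 in macrophages, Cdkn1a and Pcna (0.97 ± 0.13, adjusted p = 0.018). Of p38 and JNK pathway kinases and phosphatases 1 of 13 rose in fibroblasts, Dusp10 (1.16 ± 0.12, adjusted p = 0.014), and 2 of 13 in macrophages, Map3k8 (1.64 ± 0.19, adjusted p = 0.017) and Map2k3 (0.80 ± 0.14, adjusted p = 0.035). The macrophage partner count was 1 without acupuncture replicate 2 or dysentery replicate 2. The kinase count was 2 in fibroblasts without dysentery replicate 1 or 2, and in macrophages it was 1 without acupuncture replicate 1 or 2, 4 without dysentery replicate 1 and 0 without dysentery replicate 2. Of a list made up mostly of basic leucine zipper genes, 3 of 16 rose in fibroblasts and 4 of 15 in macrophages. Whether their products pair with ATF3 was not tested. Nfil3 led in both (4.08 ± 0.37 and 2.70 ± 0.33), followed by Cebpb and Crem in fibroblasts and by Crem and Cebpb in macrophages. Those counts were 1 in fibroblasts without acupuncture replicate 2 and 1 in macrophages without dysentery replicate 2. Nfil3 stood at 48.1, 47.3, 4.36 and 1.75 CPM in fibroblasts.

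Of Nrf2 genes for oxidative stress edgeR called 0 of 10 in fibroblasts (6 at an unadjusted p under 0.05, 5 by DESeq2) and 2 of 10 in macrophages, Hmox1 (2.08 ± 0.19, adjusted p = 0.013; 884, 1055, 287 and 206 CPM) and Nfe2l2 (1.71 ± 0.32, adjusted p = 0.043). The latter encodes Nrf2, and the macrophage count was 1 without acupuncture replicate 2 or dysentery replicate 2. Receptor and processing genes of GDF15 passed in 0 of 5 in either class by edgeR, with 1 and 0 at an unadjusted p under 0.05 and 1 and 0 by DESeq2. No gene of the 12 lists was called lower in either class.

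**Figure D5:**
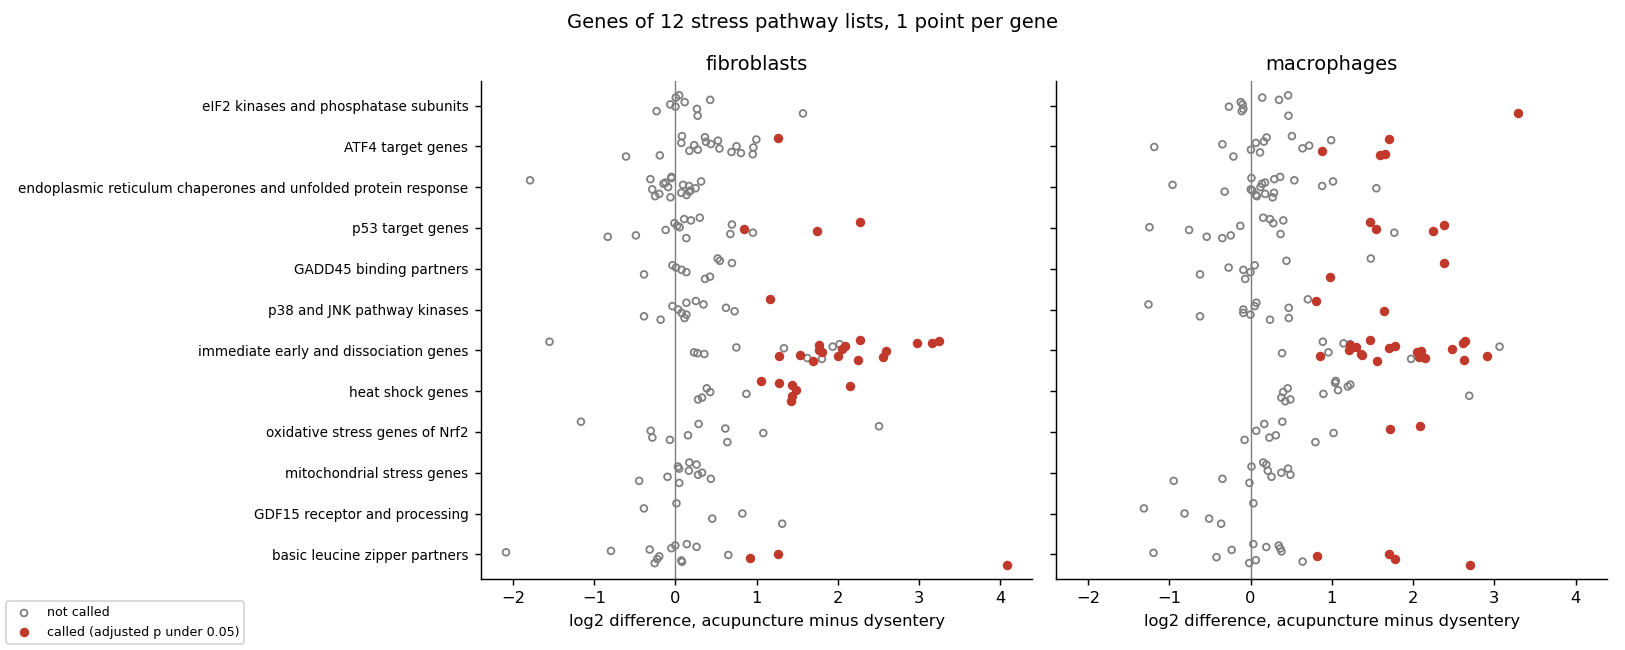
Log2 difference between acupuncture and dysentery for each gene of 12 stress pathway lists, in fibroblasts and macrophages, 1 point per gene, filled where the edgeR adjusted p was under 0.05. Filled points gather in the immediate early list (16 of 26 and 19 of 26) and, in fibroblasts, the heat shock list (7 of 12), while the unfolded protein response list has none.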

How the data were processed

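UMIs were counted in single cells of 4 libraries. Per the labels, minced fascia was dissociated enzymatically, erythrocytes were lysed, non-viable cells depleted and 3′ droplet libraries prepared. Per the submitters' processing notes the authors used Cell Ranger 6.0.1 and STAR, and the builds mRatBN7.2 and GRCh38.p13 are named without a role. The authors deposited unnormalized UMI counts for each gene in each cell. The deposited gene and barcode lists hold names, not measurements.

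Cells with at least 500 UMIs, 300 genes and at most 20% mitochondrial UMIs (13 genes) were kept. A cell joined the class with the largest share of its markers detected (at least 30%), if the next class reached at most 50% of that share. The thresholds were set after seeing the data. No doublet caller was run: cells with markers of several classes stayed ungated, and an alternative left out the top 5% of cells by UMIs. Sums of UMI counts over the cells of a class in 1 library were tested with edgeR 4.0.16 (quasi-likelihood, TMM, filterByExpr, Benjamini-Hochberg over all genes of a fit, threshold 0.05), in R 4.3.3. The sums of the members held from 0 to 50125 UMIs. For the fit across classes the library was a block. Scripts were tested on simulated data. For shares and joint detection each cell was thinned to 2000 UMIs (alternative 1000), shallower cells being left out. Odds ratios had 0.5 added to each count. They were computed for all pairs of members, and for the ranking and the background for genes in at least 5% of thinned cells of every library. Intervals are exact (Clopper-Pearson, 95%).

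The members, markers and lists were chosen with earlier results of these data known. Named genes were the 8 members, up to 3 called genes per list and class with the largest change, the 5 genes with the highest odds ratio with Atf3 and with Gdf15 in fibroblasts and macrophages, and the 5 most correlated with each over the class sums, among genes of mean CPM 10 or more. Genes of the lists whose symbol stood on more than 1 row (1 gene) were left out. Alternatives were DESeq2 1.42.0, no low-count filter, a stricter gate (60%), a mitochondrial limit of 10%, a replicate block, each library left out and, added after seeing the data, only macrophages with all 3 C1q genes.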

Additional observations from a re-analysis of the deposited data

Results flagged for a closer look

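The change with acupuncture differed between macrophages and fibroblasts, by the test of the difference itself (edgeR, adjusted over all genes), for 6 of the 24 genes named from the lists, where 2.73% of 13756 genes passed. These 24 were named for a large called change in at least 1 of the 2 classes, so their count is not read against that share. None of them is one of the 8 members. The cell cycle inhibitor Cdkn1a changed by 1.74 ± 0.23 log2 units more in macrophages (adjusted p = 0.0048), with 2.38 there and 0.70 in fibroblasts. Vldlr differed by 1.82 ± 0.33 (adjusted p = 0.015; 1.60 and -0.19), Maff by 1.62 ± 0.37 (adjusted p = 0.043; 2.91 and 1.28) and Crem by 0.87 ± 0.19 (adjusted p = 0.037; 1.78 and 0.92). Egr2 differed by -1.85 ± 0.32 (adjusted p = 0.013; 1.14 and 2.97) and Nfil3 by -1.47 ± 0.27 (adjusted p = 0.017; 2.70 and 4.08), both changing more in fibroblasts.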

How the results depend on the processing

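The calls of Gadd45a and Gadd45g in fibroblasts held under all 10 alternatives, and those of Atf4, Gadd45a and Gadd45g in macrophages under all 11. The counts of called genes were less stable. With DESeq2 they were 909 in fibroblasts, 899 in macrophages and 68 in T cells, against 322, 560 and 39. With no low-count filter they were 1907 in macrophages, 247 in T cells, 168 in endothelial cells (main 30) and 1026 for the difference in change (main 375). The stricter gate gave 14, the mitochondrial limit of 10% gave 22 and leaving out the top 5% of cells gave 71 in T cells, and the last gave 211 for the difference in change. The labels share replicate numbers. Deviations of same-numbered libraries had correlations of 0.0665 in fibroblasts, -0.0026 in macrophages, 0.260 in T cells and -0.0072 in endothelial cells. These were near 0 except in T cells, and whether same-numbered libraries were handled as pairs was not tested. The replicate block gave 524, 251, 164 and 126 called genes in fibroblasts, macrophages, T cells and endothelial cells.

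Leaving out 1 library gave 136 to 601 genes in fibroblasts, 104 to 1260 in macrophages, 95 to 184 in T cells, 29 to 118 in endothelial cells, 8513 to 9555 for the level (main 9682) and 73 to 954 for the difference in change. The lowest fibroblast and macrophage counts came without acupuncture replicate 2 and the highest without dysentery replicate 1. Without acupuncture replicate 1 they were 187 and 317, and without dysentery replicate 2 the macrophage count was 202. The mean log2 odds ratio of Atf3 and Gdf15 in macrophages was 1.85 to 2.49. Signs turned, without a call, for Ddit3 in endothelial cells without acupuncture replicate 1 (0.059) and dysentery replicate 2 (0.084), over a range down to -0.43 without acupuncture replicate 2. In the difference in change they turned for Gadd45a without acupuncture replicate 1 (0.094) and without the top 5% of cells (0.048), with a lowest value of -0.55 without acupuncture replicate 2, and for Gadd45g without acupuncture replicate 1 (0.16), dysentery replicate 1 (0.48) and the top 5% (0.075), with a lowest value of -0.68 without dysentery replicate 2. The cause of these shifts was not tested.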

Other observations

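Fibroblasts with UMIs of both Cd34 and Pdgfra, the markers used for telocytes, were compared with the other fibroblasts of the same libraries. Atf3 stood at 906, 999, 43.4 and 38.4 CPM in the former and at 694, 811, 43.6 and 37.1 CPM in the latter, so both sets carried the acupuncture difference. Gadd45a stood at 244, 179, 24.2 and 22.0 CPM and at 167, 143, 44.0 and 28.8 CPM. Gadd45b stood at 138, 227, 17.1 and 20.3 CPM and at 105, 213, 52.5 and 24.6 CPM, higher in the Cd34 and Pdgfra positive cells with acupuncture and lower without. Cells with both markers were deeper (median 8657.5 to 13581 UMIs against 5379 to 6268), since both genes are found more often in deep cells.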
